A study of Sus scrofa with 10 samples.

Results

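The 36 genes described here encode the machinery of macroautophagy and its cargo receptors, measured in pig morulae. They were chosen by name, and 35 were found under their symbol in a deposited table of 24358 genes. ATG9A was found through its identifier, because that row carried no symbol. Of the 36 genes, 32 had a mean level of at least 1 FPKM (fragments per kilobase of transcript, scaled to library size) over the libraries, the filter used for testing, as did 8476 of all genes. The embryos came from matured oocytes that received a small interfering RNA by injection and were activated parthenogenetically (without sperm) and cultured to the morula, the stage before the blastocyst cavity forms. The siRNA was directed against DDB1, which links substrates to CUL4 ubiquitin ligases, in 5 libraries (DDB1_KD), and it was a non-specific one in 5 libraries (NC, negative control). Both groups were thus injected parthenogenetic embryos, and how many embryos entered a library is not stated. Nothing in the labels says that libraries came from separate cultures, so the p-values rest on a spread between libraries that may be partly technical. In whole embryos, fewer cells of a type and less RNA per cell cannot be told apart.

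Autophagy delivers cytoplasm to the lysosome. The ULK kinase complex starts it, a lipid kinase complex marks the site with phosphatidylinositol 3-phosphate (PI3P), and ATG2 and ATG9 proteins supply membrane. Enzymes that resemble those of ubiquitin conjugation then attach proteins of the ATG8 family (LC3 and GABARAP) to the growing membrane, where receptors such as SQSTM1 dock with their cargo. In mouse embryos autophagy is known to be needed soon after fertilisation, when maternal protein is broken down. RNA levels do not measure the flux of this pathway.

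Library totals were 32466912 to 50911295 estimated counts, and the 36 genes took 0.333% to 0.643% of them in DDB1_KD and 0.340% to 0.419% in NC. DDB1 stood at 0.920 to 1.55 FPKM in DDB1_KD and 2.53 to 4.44 FPKM in NC, without overlap. Its log2 fold change was -1.39 (SE 0.28), with an adjusted p of 0.977 by edgeR. The pluripotency factor POU5F1 was present in all libraries (27.8 to 119 FPKM in DDB1_KD, 52.3 to 123 in NC). SOX2 and NANOG were lower, with means of 1.197 and 3.91 FPKM in DDB1_KD and 0.871 and 2.62 FPKM in NC. The log2 fold change was -0.47 (SE 0.36) for POU5F1, and -0.07 (SE 0.31) and -0.12 (SE 0.24) for the morula markers KLF4 and TFAP2C. It was 0.43 (SE 0.52) for SOX2, 0.54 (SE 0.79) for NANOG and 0.87 (SE 0.62) for DPPA5, and none of these passed. Of the trophectoderm factors CDX2 reached no more than 16 counts, whereas GATA3 reached 2842 and GATA2 1510 counts. The keratin KRT18 ran from 3.71 to 332 FPKM in DDB1_KD and from 119 to 453 FPKM in NC. The keratin KRT8 spread from 0.0754 to 119 FPKM in DDB1_KD and from 33.9 to 179 FPKM in NC. The log2 fold change was -1.34 (SE 1.02) for GATA3, -1.20 (SE 0.99) for GATA2, -1.02 (SE 0.84) for KRT18 and -0.82 (SE 1.05) for KRT8. All of these were lower in DDB1_KD, none passed, and CDX2 was under the filter. Of 9 cumulus cell markers 0 passed the filter, with summed levels of 0.235 to 0.637 FPKM in DDB1_KD and 0.180 to 0.408 FPKM in NC, and FSHR, AMH and INHA were at 0 throughout (a limit of 3 counts per library). Of 7 fibroblast markers 1 passed (summed levels 0.835 to 3.57 and 1.63 to 2.36 FPKM), and of 6 blood cell markers 2 passed (1.83 to 7.39 and 1.79 to 11.1 FPKM). Maternal oocyte transcripts differed widely between libraries. Their mean over 15 genes was 1.98, 5.24, 5.09, 3.60 and 5.06 log2 CPM in DDB1_KD replicates 1 to 5 and 3.51, 3.96, 4.64, 3.13 and 2.57 in NC replicates 1 to 5. DDB1_KD replicates 2, 3 and 5 thus lay above all NC libraries and DDB1_KD replicate 1 below all of them. All 15 had a higher fitted value in DDB1_KD (median log2 fold change 0.74), none passed the test, and their summed level ran from 239 to 863 FPKM in DDB1_KD and from 241 to 395 in NC.

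Levels of the tested autophagy genes in NC spanned almost the whole range of the genes tested, a range whose lower end is set by the filter. The ATG8 gene GABARAPL2 was the most abundant, at 608 ± 142 FPKM in NC (SD, n = 5), above 98.2% of all genes tested. MAP1LC3B (177 ± 14.7 FPKM), GABARAP (124 ± 30.8) and TAX1BP1 (109 ± 32.0) followed, and the spreads of the last 2 overlapped (SD, n = 5 each). Over all libraries 4 genes had a mean of at least 100 FPKM, 4 lay between 10 and 100, 24 between 1 and 10, and 4 below 1. The abundant genes were thus ATG8 proteins, the E2-like enzyme ATG3, the protease ATG4B and the receptors SQSTM1 and TAX1BP1, together with RB1CC1. The kinase genes ULK1 and ULK2, the regulators UVRAG and TFEB and the conjugation enzymes ATG7 and ATG10 had NC means of 0.899 to 1.63 FPKM. FPKM is per length, but a gene's deposited value can be lower than that of 1 of its isoforms. In NC the GABARAP isoform ENSSSCT00000019520 alone averaged 220 FPKM, against 124 for the gene. The TAX1BP1 isoform ENSSSCT00000018173 averaged 172 FPKM, against 109 for the gene. The order given here is thus that of the deposited gene values, and it may not hold for genes with several isoforms.

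**Figure D1:**
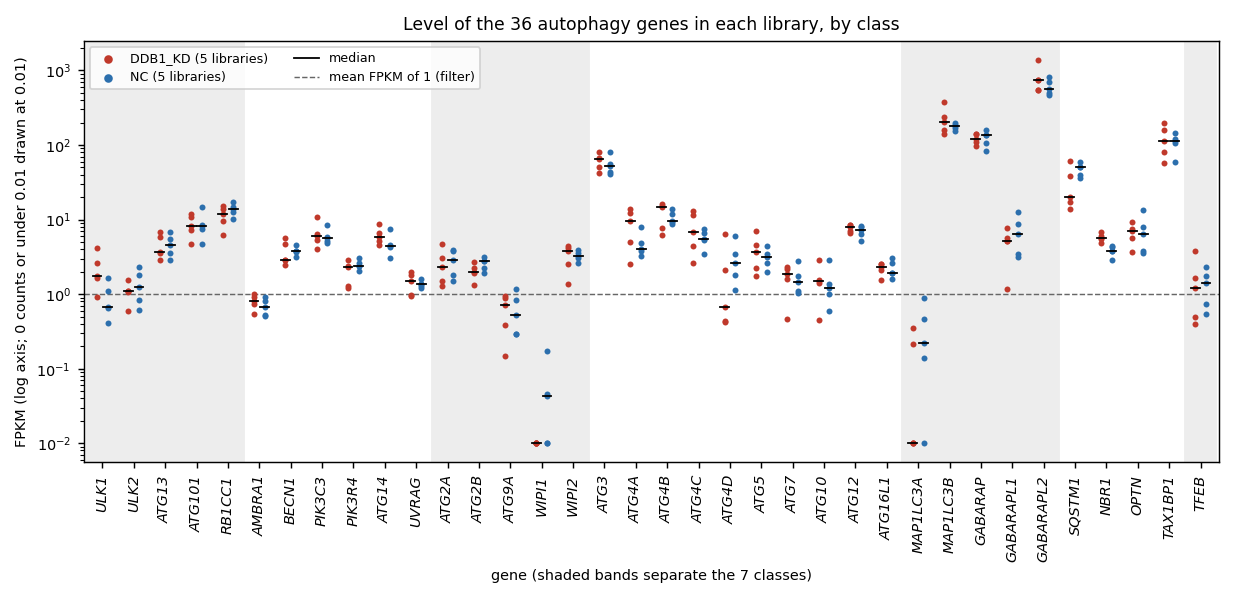
FPKM (log axis) of the 36 genes in each of 5 DDB1_KD (red) and 5 NC (blue) libraries, with black lines for medians and shading that separates the 7 classes. GABARAPL2, MAP1LC3B, GABARAP and TAX1BP1 lie at the top, and WIPI1 and MAP1LC3A at the bottom, where values with 0 counts are drawn at 0.01.

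The 4 genes under the filter were AMBRA1, a regulator of beclin 1 (0.516 to 1.01 FPKM over the 10 libraries), ATG9A, the membrane protein of autophagic vesicles (0.147 to 1.19 FPKM), WIPI1 and MAP1LC3A. WIPI1, a PI3P-binding protein, had 0 counts in all 5 DDB1_KD libraries and at most 40 counts in NC, and its paralogue WIPI2 had 3.27 ± 0.524 FPKM in NC (SD, n = 5). MAP1LC3A had at most 18 counts in a DDB1_KD library and 35 in an NC library. The summed level of the 5 ATG8 genes was 1099, 1908, 1081, 836 and 807 FPKM in DDB1_KD replicates 1 to 5 and 773, 745, 1016, 1152 and 895 FPKM in NC replicates 1 to 5. GABARAPL2 made up 65.6% to 72.5% of that sum in DDB1_KD (median 68.5%) and 61.1% to 70.1% in NC (median 67.2%). MAP1LC3B had a median share of 19.5% in DDB1_KD and 21.0% in NC, and the ranges of both genes overlapped between groups. These shares rest on the deposited gene values, which can be lower than those of an isoform. For GABARAP in NC replicate 4 the gene value was 161 FPKM, and that of isoform ENSSSCT00000019520 alone was 285 FPKM. The shares would thus differ on isoform values, on which they were not computed.

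DDB1_KD was compared with NC by edgeR's quasi-likelihood test over all 8476 genes, and 0 of the 32 autophagy genes passed at an adjusted p (Benjamini-Hochberg) of 0.05, as did 0.0% of all genes. At an unadjusted p under 0.05 there were 2, NBR1 and ULK1, or 6.25% of the 32, where 2.89% of all genes tested had such a p. Both were higher in DDB1_KD, as were 1.76% of all genes at that p, and 0 were lower, against 1.13%. ULK1 had an NC mean of 0.899 FPKM, under the filter, and was tested by virtue of its DDB1_KD libraries. The 6.25% therefore includes a gene selected through the group where it was high. Without DDB1_KD replicate 4 there were 6 genes at that p, with ATG4A and MAP1LC3B higher and SQSTM1 and ATG4D lower besides. Without NC replicate 3 there were 4, with ATG4A and ATG14 besides. The share of all genes at that p is not given with a library left out, so these counts cannot be set against it. limma gave 0 passed and 3 at an unadjusted p under 0.05 (SQSTM1 besides), where 3.22% of all genes had one. DESeq2 gave 0 passed, against 0.0236% of all genes, and 3 at an unadjusted p under 0.05 (ATG4A besides), against 4.16%. The fitted value was higher in DDB1_KD for 17 genes and lower for 15, where 50% of all genes were higher and 50% lower. The median log2 fold change was 0.06, against 0.00036 over all genes tested. The spread within groups was that of other genes, with a median SD of 0.46 on the log2 CPM scale, against 0.51. The class medians were -0.04 for the 5 ULK complex genes, 0.06 for the 5 genes of the lipid kinase complex, -0.13 for 3 genes of membrane supply, 0.16 for 10 conjugation enzymes, 0.16 for 4 ATG8 genes and 0.04 for 4 receptors. With 1 library left out they ran from -0.17 to 0.04 for the ULK complex, -0.03 to 0.18 for the lipid kinase complex and -0.39 to 0.03 for membrane supply. The ranges were 0.06 to 0.22 for the conjugation enzymes, 0.02 to 0.25 for the ATG8 genes and -0.07 to 0.29 for the receptors. The lowest values for the ULK complex, the lipid kinase complex and membrane supply came without DDB1_KD replicate 4, and those for the other 3 classes without DDB1_KD replicate 2.

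**Figure D2:**
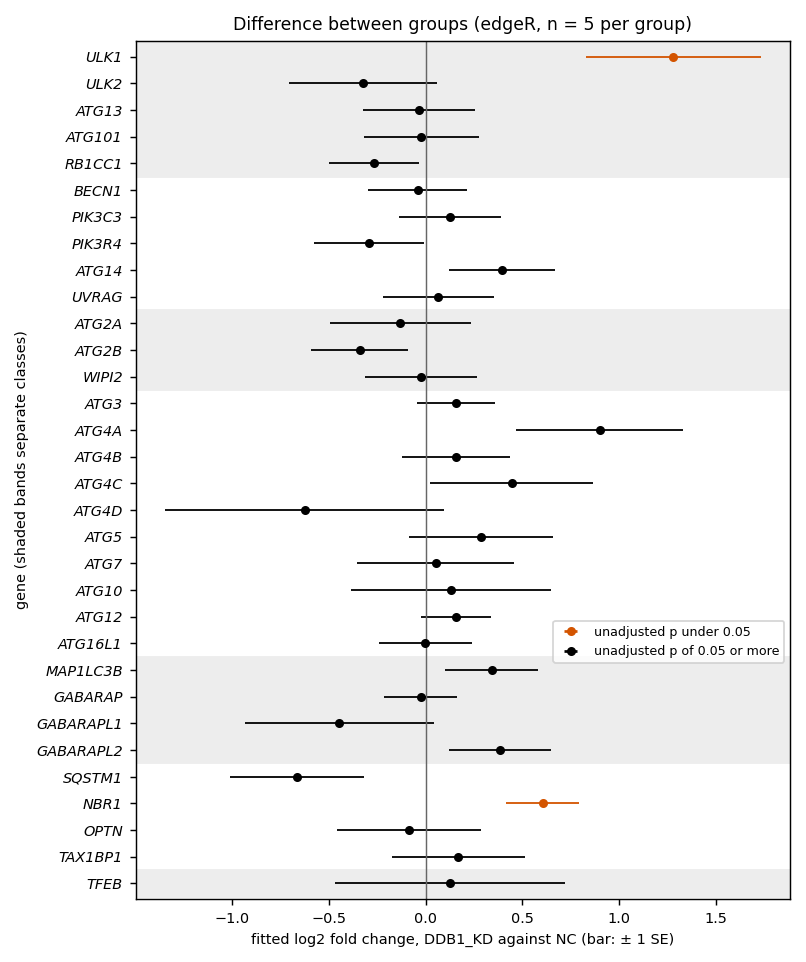
Fitted log2 fold change of DDB1_KD against NC (x axis, edgeR) with bars of ± 1 SE for the 32 genes tested, n = 5 libraries per group. ULK1 (1.28) and NBR1 (0.60), in orange, had an unadjusted p under 0.05, and none passed after adjustment.

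NBR1, a receptor that binds ubiquitinated cargo and LC3, was the only one of the 32 genes whose groups did not overlap. It had 5.74, 6.73, 5.51, 6.10 and 4.78 FPKM in DDB1_KD replicates 1 to 5 and 2.83, 3.75, 4.40, 3.78 and 4.27 FPKM in NC replicates 1 to 5. Every DDB1_KD library was above every NC library, as was so in either direction for 0.413% of all genes tested. The means were 5.77 ± 0.721 and 3.81 ± 0.616 FPKM (SD, n = 5 each), a log2 fold change of 0.60 (SE 0.19). By edgeR's quasi-likelihood test the unadjusted p was 0.00702, the 17th smallest of 8476, and the adjusted p 0.977. When 1 library was left out the log2 fold change ran from 0.53 to 0.65. NBR1 (ENSSSCG00000030211) lies on the minus strand of chromosome 12 from 19755736 to 19811076 (susScr11) and shares 23219 of these bases with a gene on the other strand, whose log2 fold change was 0.13 (SE 0.31). The sources used here do not say whether strand was used in counting, and without strand the reads of both genes would be mixed.

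SQSTM1 (p62), the receptor that itself is degraded by autophagy, had the opposite sign. It had 38.4, 16.9, 20.3, 61.5 and 13.7 FPKM in DDB1_KD replicates 1 to 5 and 59.4, 39.7, 50.4, 36.1 and 50.1 FPKM in NC replicates 1 to 5. DDB1_KD replicates 2, 3 and 5 lay below all NC libraries, and DDB1_KD replicate 4 above all of them. The log2 fold change was -0.66 (SE 0.34) and the unadjusted p 0.0771, with an adjusted p of 0.977 by edgeR. It was -1.02 without DDB1_KD replicate 4. The 3 low libraries were those with the highest maternal transcript level, and the part of that level in the SQSTM1 values was not tested. Set against each other, a pair chosen after its values were seen, NBR1 stood at 15.0%, 39.7%, 27.2%, 9.91% and 34.9% of the SQSTM1 FPKM in DDB1_KD replicates 1 to 5. In NC replicates 1 to 5 the share was 4.77%, 9.44%, 8.73%, 10.5% and 8.52%, so that DDB1_KD replicate 4 alone fell within the NC range.

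TAX1BP1, a receptor for ubiquitinated cargo and the most abundant of the 4, overlapped between groups. It had 79.4, 197, 160.2, 57.4 and 115 FPKM in DDB1_KD replicates 1 to 5 and 113, 121, 146, 107 and 58.3 FPKM in NC replicates 1 to 5 (log2 fold change 0.17, SE 0.34). OPTN, optineurin, a receptor in the clearance of mitochondria, ranged from 3.67 to 9.37 FPKM in DDB1_KD and from 3.59 to 13.2 FPKM in NC (log2 fold change -0.08, SE 0.37).

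**Figure D3:**
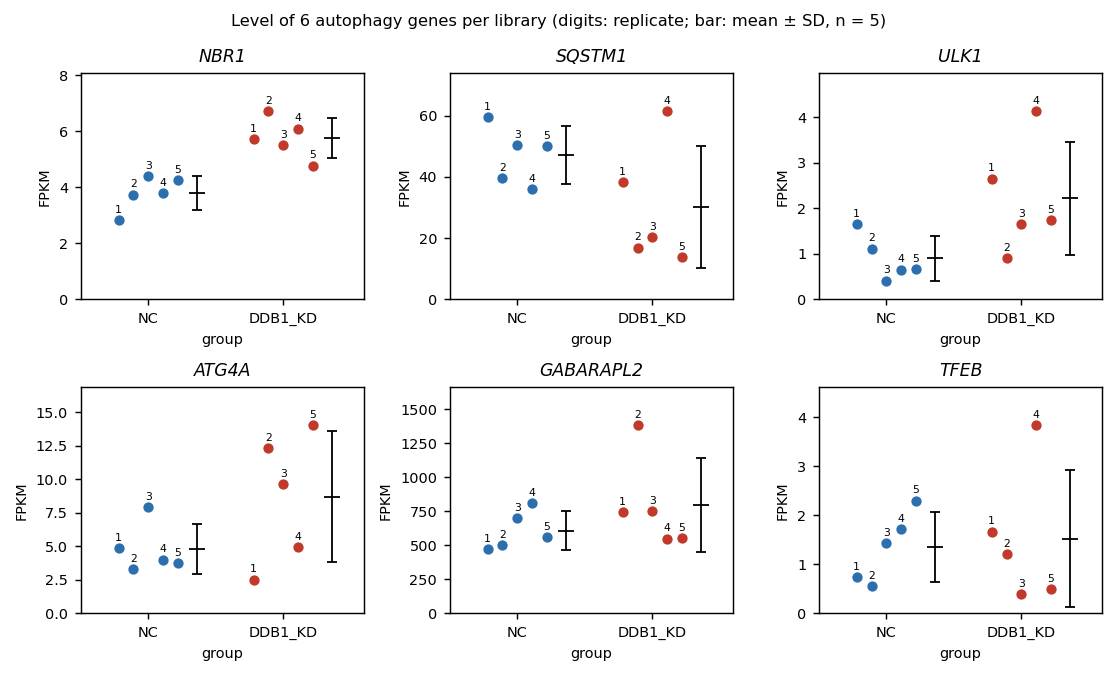
FPKM of 6 genes in each library, with the replicate number above each point and the mean ± SD (n = 5) beside each group. NBR1 shows no overlap between groups, and SQSTM1 in DDB1_KD replicates 2, 3 and 5 (13.7 to 20.3 FPKM) lies under the NC range of 36.1 to 59.4 FPKM.

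ULK1, the kinase that starts autophagy, had the largest fitted value of the 32 genes. It had 2.65, 0.902, 1.66, 4.14 and 1.75 FPKM in DDB1_KD replicates 1 to 5 and 1.65, 1.12, 0.414, 0.654 and 0.667 FPKM in NC replicates 1 to 5. Of the DDB1_KD libraries 4 lay above all NC libraries, DDB1_KD replicate 3 only just, and DDB1_KD replicate 2 lay among them. The log2 fold change was 1.28 (SE 0.45), with an unadjusted p of 0.0144, the 55th smallest, and an adjusted p of 0.977 by edgeR. Its NC mean alone, 0.899 ± 0.488 FPKM (SD, n = 5), is under the filter, so ULK1 was tested by virtue of its DDB1_KD libraries, and of the 32 genes this holds for ULK1 only. Its counts were 304 to 1082 in DDB1_KD and 113 to 462 in NC. ULK2, its paralogue, had a fitted value of the other sign, with 0.590 to 1.53 FPKM in DDB1_KD and 0.610 to 2.30 FPKM in NC (log2 fold change -0.32, SE 0.38).

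RB1CC1 (FIP200), the scaffold of the ULK complex and its most abundant member, had 13.8, 9.69, 6.26, 15.4 and 12.0 FPKM in DDB1_KD replicates 1 to 5 and 13.9, 12.6, 10.3, 14.6 and 17.3 FPKM in NC replicates 1 to 5. DDB1_KD replicates 2 and 3 lay below the NC range and the other 3 within it (log2 fold change -0.27, SE 0.23). The adaptor ATG13 (-0.04, SE 0.29) and its partner ATG101 (-0.02, SE 0.30) had log2 fold changes smaller than their standard errors. For the complex as a whole 1 of 5 genes was higher and 4 were lower.

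The lipid kinase complex was present at low levels in both groups. PIK3C3 (VPS34), its catalytic subunit, had 4.02, 10.8, 6.03, 5.25 and 6.34 FPKM in DDB1_KD replicates 1 to 5 and 4.83, 5.15, 8.35, 5.65 and 5.83 FPKM in NC replicates 1 to 5. DDB1_KD replicate 2 was the highest and DDB1_KD replicate 1 the lowest of the 10. ATG14, the subunit that directs the complex to autophagy, had 6.60, 8.74, 5.10, 4.51 and 5.90 FPKM in DDB1_KD replicates 1 to 5 and 4.52, 4.38, 7.57, 3.02 and 4.27 FPKM in NC replicates 1 to 5. DDB1_KD replicates 1, 2, 3 and 5 lay above 4 of the 5 NC libraries, but NC replicate 3 exceeded all except DDB1_KD replicate 2 (log2 fold change 0.39, SE 0.27). PIK3R4 (VPS15), the regulatory subunit, had 2.90, 1.29, 2.34, 2.36 and 1.22 FPKM in DDB1_KD replicates 1 to 5 and 3.07, 2.60, 2.39, 2.07 and 2.35 FPKM in NC replicates 1 to 5. Its low values were in DDB1_KD replicates 2 and 5 (log2 fold change -0.29, SE 0.29). BECN1, beclin 1, and UVRAG, which takes the place of ATG14 in the endosomal form of the complex, had log2 fold changes of -0.04 (SE 0.26) and 0.06 (SE 0.29).

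The 3 tested genes of membrane supply had lower fitted values in DDB1_KD, and none passed the test. ATG2B, a lipid transfer protein, had 2.01, 1.92, 1.34, 2.73 and 2.25 FPKM in DDB1_KD replicates 1 to 5 and 3.19, 2.75, 2.25, 2.78 and 1.91 FPKM in NC replicates 1 to 5 (log2 fold change -0.34, SE 0.25). Its paralogue ATG2A had 3.04, 2.34, 1.52, 4.64 and 1.29 FPKM in DDB1_KD replicates 1 to 5 and 1.83, 1.49, 2.90, 3.75 and 3.85 FPKM in NC replicates 1 to 5. DDB1_KD replicate 4 was highest for ATG2A, and DDB1_KD replicate 5 lowest. WIPI2, which recruits the conjugation machinery, had 3.74, 4.45, 1.38, 4.10 and 2.53 FPKM in DDB1_KD replicates 1 to 5 and 3.59, 2.59, 3.02, 3.21 and 3.95 FPKM in NC replicates 1 to 5 (log2 fold change -0.02, SE 0.29).

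Among the conjugation enzymes 8 of 10 had a higher value in DDB1_KD, with none passed. The 4 ATG4 proteases trim ATG8 proteins and release them from membranes. ATG4A had 2.52, 12.3, 9.66, 4.94 and 14.1 FPKM in DDB1_KD replicates 1 to 5 and 4.84, 3.29, 7.94, 4.01 and 3.75 FPKM in NC replicates 1 to 5. DDB1_KD replicates 2, 3 and 5 lay above all NC libraries and DDB1_KD replicate 1 below all of them, the same libraries as for the maternal transcripts, whose part in this was not tested. The log2 fold change was 0.90 (SE 0.43), with an unadjusted p of 0.058 and an adjusted p of 0.977 by edgeR. ATG4A (chromosome X, 88543972 to 88635465, plus strand) shares 4717 bases with PSMD10 on the other strand, a proteasome assembly chaperone whose log2 fold change was 0.72 (SE 0.25).

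ATG4C had 4.41, 12.8, 6.85, 2.63 and 11.6 FPKM in DDB1_KD replicates 1 to 5 and 5.43, 5.40, 7.58, 6.69 and 3.41 FPKM in NC replicates 1 to 5. DDB1_KD replicates 2 and 5 were the highest and DDB1_KD replicate 4 the lowest (log2 fold change 0.44, SE 0.42). ATG4D ran from 0.419 to 6.43 FPKM in DDB1_KD (median 0.668) and from 1.14 to 6.08 FPKM in NC (median 2.59). Its within-group SD of 1.28 on the log2 CPM scale was the widest of the 32 genes. It was lowest in DDB1_KD replicates 2, 3 and 5 and highest in DDB1_KD replicate 4, and its log2 fold change of -0.63 (SE 0.72) was -1.64 without that library. ATG4B, the most abundant of the 4 proteases, had a log2 fold change of 0.16 (SE 0.28).

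ATG3, the E2-like enzyme that transfers ATG8 proteins to lipid, was the most abundant conjugation enzyme. It had 66.2, 64.8, 50.3, 79.7 and 42.5 FPKM in DDB1_KD replicates 1 to 5 and 52.8, 44.1, 54.9, 40.9 and 81.1 FPKM in NC replicates 1 to 5, with full overlap (log2 fold change 0.16, SE 0.20). ATG12, the ubiquitin-like protein joined to ATG5, had 7.71 ± 0.868 and 6.97 ± 1.23 FPKM (SD, n = 5 each), and ATG16L1, which binds the pair, 2.20 ± 0.402 and 2.22 ± 0.590 FPKM. ATG5 (log2 fold change 0.29, SE 0.37), the E1-like enzyme ATG7 (0.05, SE 0.41) and the E2-like enzyme ATG10 (0.13, SE 0.52) differed by less than their standard errors.

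Of the ATG8 genes GABARAPL2 had 743, 1384, 749.9, 549 and 552 FPKM in DDB1_KD replicates 1 to 5 and 472, 500.3, 699, 808 and 559 FPKM in NC replicates 1 to 5. DDB1_KD replicate 2 stood above all other libraries. The log2 fold change was 0.38 (SE 0.27), and 0.13 without that library. MAP1LC3B, the LC3 gene that was present, had 239, 379, 201, 142 and 157 FPKM in DDB1_KD replicates 1 to 5 and 183, 156, 171, 179.8 and 196 FPKM in NC replicates 1 to 5. Its DDB1_KD libraries lay on both sides of the narrow NC range (log2 fold change 0.34, SE 0.24, and 0.10 without DDB1_KD replicate 2). GABARAP had a log2 fold change of -0.03 (SE 0.19). GABARAPL1 ran from 1.18 to 7.70 FPKM in DDB1_KD (median 5.22) and from 3.12 to 12.5 FPKM in NC (median 6.41), a log2 fold change of -0.45 (SE 0.49).

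TFEB, the transcription factor that controls lysosomal and autophagy genes, had 1.67, 1.21, 0.397, 3.84 and 0.501 FPKM in DDB1_KD replicates 1 to 5 and 0.743, 0.549, 1.43, 1.73 and 2.30 FPKM in NC replicates 1 to 5. DDB1_KD libraries held both the highest and the lowest values. The log2 fold change was 0.12 (SE 0.59), and -0.48 without DDB1_KD replicate 4.

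**Figure D4:**
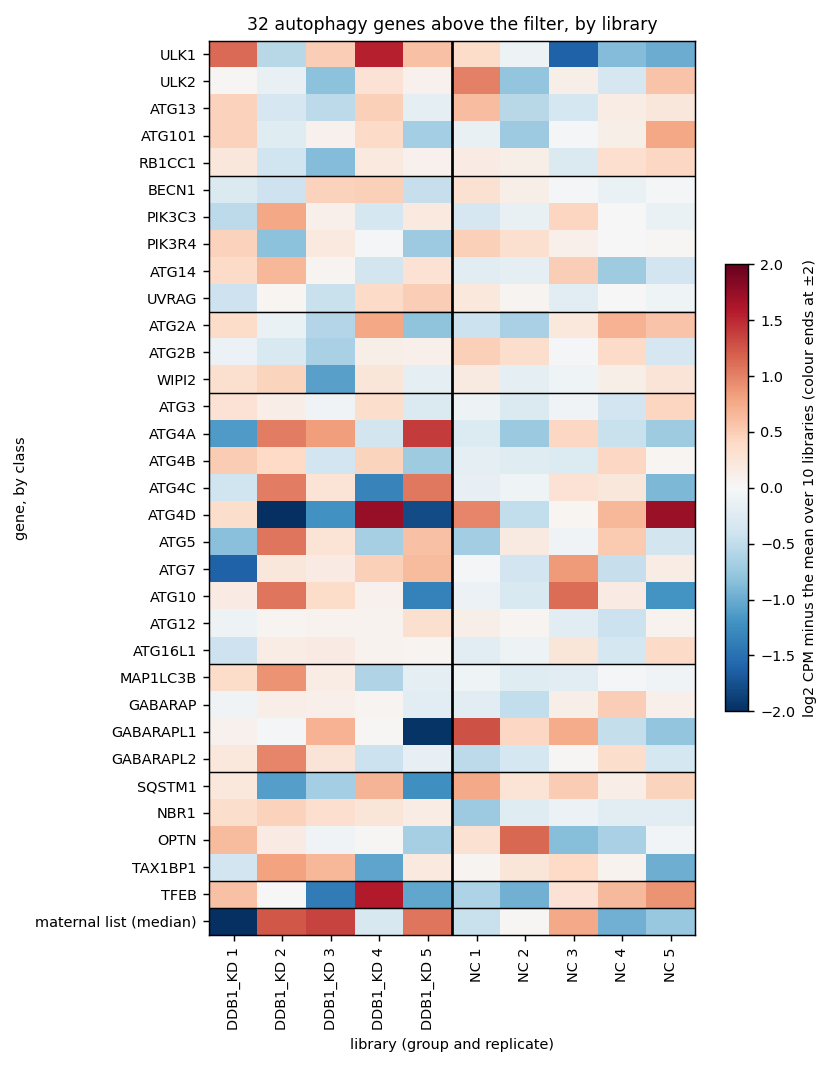
Log2 CPM of the 32 tested genes minus each gene's mean over the 10 libraries (colour, ends at ±2), by library, with the median of 15 maternal transcripts in the last row. ATG4A is high and SQSTM1 and ATG4D are low in DDB1_KD replicates 2, 3 and 5, while NBR1 is the only row with all DDB1_KD libraries above all NC libraries in FPKM.

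The neighbouring steps of the pathway, described by lists from textbook knowledge, showed no gene past the test either. Of 21 genes of mTORC1 and AMPK control, which set ULK1 activity, 13 had a higher and 8 a lower fitted value (median log2 fold change 0.07). PRKAA1, the catalytic AMPK subunit, had a mean of 3.49 ± 1.28 FPKM against 2.28 ± 0.562 in NC (SD, n = 5 each), with a log2 fold change of 0.61 (SE 0.30), and RRAGA and RHEB, activators of mTORC1, had 0.36 (SE 0.21) and 0.24 (SE 0.15). Of 13 other receptors and mitophagy genes 7 were higher and 6 lower (median 0.0050). Of these, the mitochondrial receptors BNIP3L and FUNDC1 had log2 fold changes of 0.52 (SE 0.25) and 0.83 (SE 0.43), which did not pass.

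Of 11 genes of autophagosome fusion 7 were higher and 4 lower (median 0.09). VAMP8, the lysosomal SNARE, stood at 615 ± 182 FPKM with the knockdown and 889 ± 133 FPKM without it (SD, n = 5 each). Its log2 fold change of -0.51 (SE 0.23) had an unadjusted p of 0.0428 and an adjusted p of 0.977 by edgeR. Its partner SNAP29 had -0.36 (SE 0.28), and VPS39, of the HOPS tether, 0.31 (SE 0.25). Of 37 lysosomal membrane, hydrolase and proton pump genes, many of them known TFEB targets, 15 were higher and 22 lower (median -0.11). The proton pump subunits ATP6V1B2 (0.46, SE 0.19, unadjusted p = 0.0316, adjusted p = 0.977 by edgeR) and ATP6V1H (-0.62, SE 0.31) had opposite signs, and the hydrolase GUSB had -0.74 (SE 0.36).

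The deposited isoform table lists 117 isoforms of the 36 genes, 44 of them above the same filter. edgeR passed 0 of the 44, where 0.00889% of 11250 isoforms passed. At an unadjusted p under 0.05 there were 4, against 3.36% of all isoforms. Of these 3 were higher and 1 was lower in DDB1_KD, against 1.97% and 1.39% of all isoforms. Over the 44, 27 had a higher and 17 a lower value in DDB1_KD, where 50.6% of all isoforms were higher and 49.4% lower. In 0 of the 44 did the groups not overlap, against 0.373% of all isoforms. The 4 with an unadjusted p under 0.05 each had counts in some libraries and few or none in the others. In the group where each was low its mean was 0.0001 to 0.149 FPKM, under the filter. All 4 were thus tested by virtue of the group where they were high, so their p-values and their count carry that selection. Estimates of isoforms that share exons depend on how reads were assigned, so these switches are values of the deposited estimates.

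The NBR1 isoform ENSSSCT00000040257, of 23 exons, had 158, 1182, 924, 1 and 1015 estimated counts in DDB1_KD replicates 1 to 5 and 3, 15, 76, 34 and 21 in NC replicates 1 to 5. It held 55.0%, 52.2% and 59.0% of the gene's counts in DDB1_KD replicates 2, 3 and 5, against at most 6.74% in NC. In DDB1_KD replicate 4 its share was 0.0662%, so the groups overlapped (log2 fold change 4.36, SE 1.41, adjusted p = 0.9997 by edgeR). Of the NC libraries, replicates 3, 4 and 5 had 69.0%, 72.4% and 88.6% of NBR1 counts on ENSSSCT00000027389, whereas replicates 1 and 2 had 87.2% and 82.4% on ENSSSCT00000066300. The higher level of NBR1 in DDB1_KD was thus a sum over isoforms that differed from library to library.

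SQSTM1 counts lay on 1 isoform, ENSSSCT00000015311, in 9 libraries. In DDB1_KD replicate 5, 99.3% (1603 counts) were assigned to ENSSSCT00000036969, which had at most 1 count elsewhere. ATG13 counts lay mainly on ENSSSCT00000014481 in 8 libraries, but in DDB1_KD replicates 3 and 4 ENSSSCT00000060155 held 93.7% and 93.5% (734 and 1330 counts). That isoform had 48 counts in DDB1_KD replicate 5 and 0 in the other 7 libraries, which allows up to 3 counts in each. The GABARAP isoform ENSSSCT00000024515 had 7293 counts in NC replicate 4 and 0 in all others. RB1CC1 isoform ENSSSCT00000064633 had 825, 847, 824, 331 and 928 counts in DDB1_KD replicates 1 to 5 and 1704, 4282, 692, 252 and 2445 in NC replicates 1 to 5 (log2 fold change -1.33, SE 0.64). TAX1BP1 isoform ENSSSCT00000043680 had 13915, 10264 and 4890 counts in DDB1_KD replicates 2, 3 and 5 and at most 3 in replicates 1 and 4, against 0 to 7511 in NC. Also listed with more than 1 tested isoform were ATG101, whose shorter form held 34.7% to 98.1% of counts in DDB1_KD and 46.8% to 99.5% in NC, and ATG5, whose longer form held 60.0% to 84.9% and 69.0% to 84.1%.

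**Figure D5:**
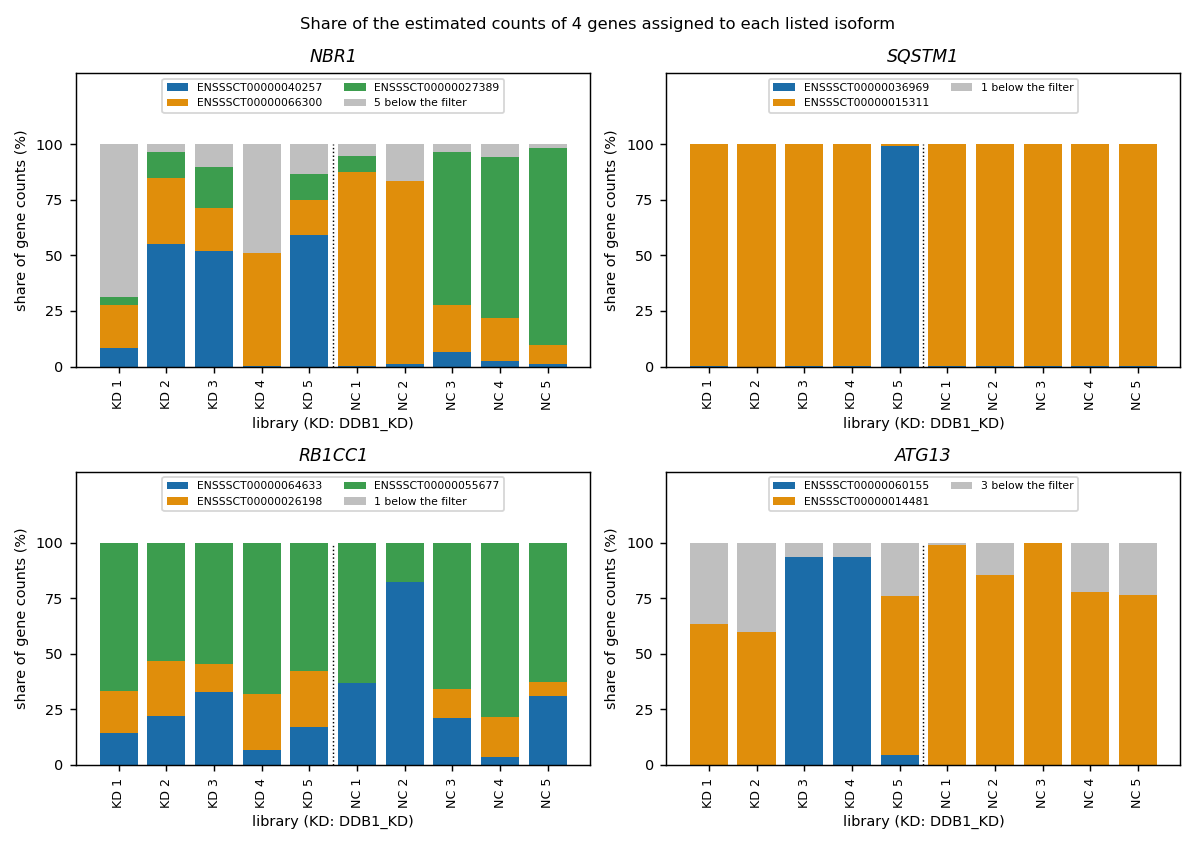
Share of each gene's estimated counts (percent, bars from 0) assigned to its isoforms in each library, for NBR1, SQSTM1, RB1CC1 and ATG13; grey stands for isoforms below the filter and KD for DDB1_KD. The blue NBR1 isoform holds 52.2% to 59.0% in DDB1_KD replicates 2, 3 and 5, and SQSTM1 switches isoform in DDB1_KD replicate 5 alone.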

How the data were processed

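Per the labels' protocols, fragmented cDNA was read from both ends (Illumina). Per the submitters' processing notes the tools were fastp, HISAT2, HOMER, ChIPseeker, StringTie and edgeR, without version or role, and the build was susScr11. Per the file headers the deposited tables give FPKM and estimated counts per gene and isoform for each of 10 libraries, and the columns spell DDB1 as DBB1. The deposited estimated counts are whole numbers. In all libraries 100% of isoform counts above 0 equalled the deposited FPKM times length times a constant, within 1.5 counts plus 0.5%, so their sampling error may not be that of read counts. The deposited FPKM is 0.0001 where the count is 0. Limits from counts cover counting error only.

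Features with a mean of 1 FPKM or more were tested with edgeR 4.0.16 (glmQLFit and glmQLFTest, TMM scaling, group alone) in R 4.3.3, on estimated counts as deposited, with Benjamini-Hochberg adjustment over all 8476 genes or 11250 isoforms. The SE is the unshrunken coefficient over the root of F. limma 3.58.1 on log2(FPKM + 1) and DESeq2 1.42.0 were run beside it, and the alternatives covered the pseudocount, filter, scaling, replicate block and each library left out. Python 3.11.15 and pandas 2.3.3 handled tables. On data simulated from these libraries, the share of altered genes that edgeR called was 24% at a log2 fold of 1 and 70% at 2 (6 false calls among 8476 genes). For isoforms it was 2% and 10% (1 false call among 11250). The simulation altered 50 features at each log2 fold of 1, 2, 3 and 4 and held no variation shared by genes between libraries. These shares may therefore not hold for the libraries themselves, where DDB1, at a log2 fold change of -1.39, did not pass. Of the 36 genes 18 overlap a gene on the other strand. The members and lists were chosen with earlier results of these data known. Values per library are given for the 17 genes whose groups did not overlap, had the 2 smallest p or the highest level of their class, or were SQSTM1 or TFEB. Per isoform they are given for the 4 smallest p and for genes with several tested isoforms, and from each other list up to 3 genes with the smallest p are named, of which 1 is not reported here. Receptor ratios and a few values outside this rule were chosen after seeing the values.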

Additional observations from a re-analysis of the deposited data

Results flagged for a closer look

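In 36 groups of 5 libraries (17 genes and the share of counts from all 36 genes, in each condition), 2 held a library far from the other 4. Chance alone gives about 1 in 20, and 2 of 36 is near that share. GABARAPL2 in DDB1_KD replicate 2, at 1384 FPKM, stood above the other 4 DDB1_KD libraries (549 to 749.9 FPKM). PIK3C3 in NC replicate 3, at 8.35 FPKM, stood above the other 4 NC libraries (4.83 to 5.83 FPKM).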

How the results depend on the processing

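Under the 18 alternatives run, 0 of the autophagy genes and, in the 17 for isoforms, 0 of their isoforms passed. Over all genes edgeR passed 0 in each alternative and DESeq2 passed 2. Over all isoforms 1 passed, against 2 with limma on log2(FPKM + 0.1), 0 with no filter, 0 with the replicate block, and 0 to 2 when 1 library was left out. Samples with the same number did not in general deviate together (correlations -0.14 to 0.35). Only DDB1_KD replicate 3, with the correlation of 0.35, had its best match in the NC library of its own number. The numbers are therefore not taken as pairs. The block changed no call among the autophagy genes. Of 576 comparisons of a gene's log2 fold change with an alternative, 520 kept the sign and 56 did not, and 17 of 32 genes kept it throughout, NBR1, SQSTM1, ULK1 and ATG4A among them. The number of autophagy genes at an unadjusted p under 0.05 was 2, against 4 with no filter and 2 to 6 with 1 library left out. The share of all genes at that p is not given for these settings, so the counts cannot be set against it. The sign changed with the replicate block for ATG101 (0.022), ATG7 (-0.023), ATG16L1 (0.0098), GABARAP (0.0045), OPTN (0.045) and TFEB (-0.063). With limma on log2(FPKM + 0.1) it changed for ATG7 (-0.037), ATG16L1 (0.0012), OPTN (0.031) and TFEB (-0.085), and on log2(FPKM + 1) for OPTN (0.017). ATG16L1 (-0.0021) changed sign also with DESeq2 (0.020), RLE scaling (0.020) and a minimum of 10 counts in 5 libraries (0.00060). With 1 library left out the log2 fold change ran across 0 for ATG13 (-0.17 to 0.15), ATG101 (-0.15 to 0.22), BECN1 (-0.18 to 0.064), PIK3C3 (-0.10 to 0.27), UVRAG (-0.060 to 0.18), ATG2A (-0.39 to 0.042), WIPI2 (-0.15 to 0.17), ATG5 (-0.012 to 0.49), ATG7 (-0.089 to 0.32), ATG10 (-0.18 to 0.54), ATG16L1 (-0.074 to 0.11), GABARAP (-0.11 to 0.12), OPTN (-0.26 to 0.33), TAX1BP1 (-0.032 to 0.36) and TFEB (-0.48 to 0.37). The cause was not tested. No gene name was listed more than once, so summing rows of one name was not run.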
